A study of Mus musculus with 4 samples.

Results

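The genes described here carry the signals of class I and class II cytokine receptors from the cell surface to the nucleus and switch those signals off again. They are 40 genes: 14 receptor chains, 4 JAK kinases, 6 STAT transcription factors, 8 feedback inhibitors (the SOCS proteins and CIS), 4 phosphatases, 3 PIAS proteins and the target kinase Pim1. They were chosen by gene symbol and not by any measured value. Each symbol was matched to the probes of the array through the probes' accessions, and each gene is given by the probe with the highest mean signal over the 4 arrays. All 40 were found among the 20832 gene symbols that the probes could be given, and all 40 passed the filter on dim probes, which asked that 1 genotype or both be well above background throughout. Of these, 38 were well above background on all 4 arrays.

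The arrays were hybridized with RNA from bronchoalveolar lavage fluid (BALF) cells, which are the cells washed out of the airspaces of the lung. Both groups received bleomycin, a drug that damages the lung and leads to fibrosis, by repeated intraperitoneal injection at 0.035 U/g, and the cells were taken on day 22. One group was wild-type and the other carried the S1pr2-/- genotype, a targeted disruption of the gene for sphingosine-1-phosphate receptor 2 in every cell of the body, on a mixed background backcrossed once to C57BL/6J, and the wild-type controls were littermates from heterozygous breeding. The study's methods place the mice at young adult age and speak of independent RNA samples, with 2 arrays for each genotype. How many mice gave the cells for an array is not given in the sources used here, and p-values below measure only the spread between these samples. No array of untreated mice was analysed here, and every comparison is between genotypes under bleomycin.

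Cytokine receptors of this class have no enzyme of their own. Ligand binding brings receptor chains and their bound JAK kinases together, the kinases phosphorylate STAT proteins, and the STATs enter the nucleus and switch on target genes. Among those targets are Socs1, Socs2, Socs3 and Cish, whose proteins bind the receptor or the kinase and damp the signal, so their transcripts are often read as a trace of recent cytokine signaling. In alveolar macrophages, interleukin (IL)-4 and IL-13 act through IL4RA and STAT6, the interferons through STAT2 and its partners, and granulocyte-macrophage colony-stimulating factor through STAT5. The array measures transcripts only, and neither the phosphorylation of a kinase or STAT nor the amount of a protein can be read from it.

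Values are log2 of a probe's processed intensity over the 75th percentile of its array, so that 0 stands for the level of that percentile. They are given for the first and second wild-type array and then for the first and second array labelled S1pr2-/-, and fold changes are S1pr2-/- minus wild-type. A value can be compared between arrays but not between genes, since probes differ in brightness. The 75th percentiles lay between 2489 and 2817 intensity units, and the share of probes well above background ran from 67.6% to 72.1%. The S1pr2 probe, which checks the labels, read -0.13 and -0.16 for wild-type and 2.67 and 2.54 for the arrays labelled S1pr2-/-, 6.72-fold higher on the latter (log2 fold change 2.75, standard error (SE) 0.072, Benjamini-Hochberg adjusted p = 0.332 in limma). It went against the label. What part of the transcript this probe covers relative to the disruption is not given in the sources used here, so all directions below follow the labels of the arrays.

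The RNA came from a mixture of cells. Alveolar macrophages are what the labels name, and of 11 markers of these cells (such as Siglecf, Marco and Chil3) all were well above background on every array. Their summed level over the 75th percentile was 838 and 907 for wild-type and 806 and 882 for the arrays labelled S1pr2-/-, so the groups overlapped. Markers of other cells were present too. T cell, neutrophil and epithelial markers were found on all arrays, and eosinophil markers at higher levels on the wild-type arrays, as given beside the results they touch. For a transcript measured in such a mixture, fewer cells that carry it and less of it per cell cannot be told apart.

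No member passed an adjusted p of 0.05 in either direction (0 lower and 0 higher, as for the 27158 probes tested in all, where limma called 0 after Benjamini-Hochberg adjustment and the background share was 0%). Over the 40 members the adjusted p lay between 0.509 and 1. Before that adjustment, limma gave a p under 0.05 for 6 members that were lower on the arrays labelled S1pr2-/- (15.0%, against 5.59% of all probes tested) and for 2 that were higher (5%, against 3.99%). The 6 were Stat2, Socs1, Socs2, Cish, Ptpn2 and Pim1, and the 2 were Il10ra and Il10rb. With a fold over 1.5 added, which is the threshold of the study's methods, 2 members were lower, Socs1 and Cish (5%, against 1.62% of all probes), and 0 were higher (against 0.486%). The study singled out Socs1 and Cish on these same arrays, so their place in that count is no independent evidence. Both arrays labelled S1pr2-/- lay below both wild-type arrays for 17 members (42.5%, against 21.8% of all probes) and above them for 9 (22.5%, against 20.0%). The median log2 fold change of the members was -0.11, with a range from -1.74 to 0.26, beside a median of -0.0030 over all probes tested. The number of members past these thresholds changed when an array was left out, and so did the genes counted. Such a fit also holds less information on the spread between arrays. The log2 fold changes of the 6 lower members kept their sign, from -2.22 to -1.26 for Socs1 and -1.32 to -0.79 for Cish. Socs2 ran from -0.43 to -0.27, Pim1 from -0.40 to -0.23, Stat2 from -0.39 to -0.26 and Ptpn2 from -0.29 to -0.21. The 2 higher members ran from 0.21 to 0.31 (Il10ra) and from 0.17 to 0.25 (Il10rb). With 2 arrays a genotype the smallest p of an exact two-sided permutation test is 0.333, and precision is limited by the number of arrays.

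**Figure D1:**
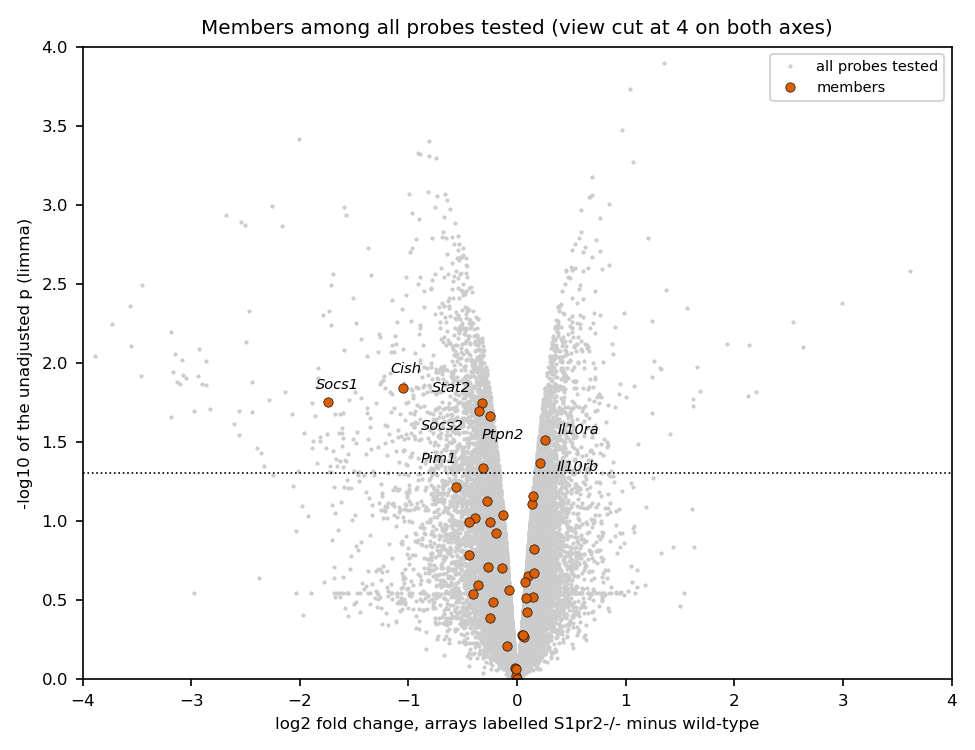
Each grey point is 1 of the 27158 probes tested and each orange point 1 of the 40 members, with the log2 fold change (arrays labelled S1pr2-/- minus wild-type) on the horizontal axis and -log10 of the unadjusted limma p on the vertical axis, where the dotted line marks the threshold of 0.05. The 8 named members lie above the line, Socs1 and Cish far to the left of the others, and 16 probes, of which 0 are members, fall outside the view.

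**Figure D2:**
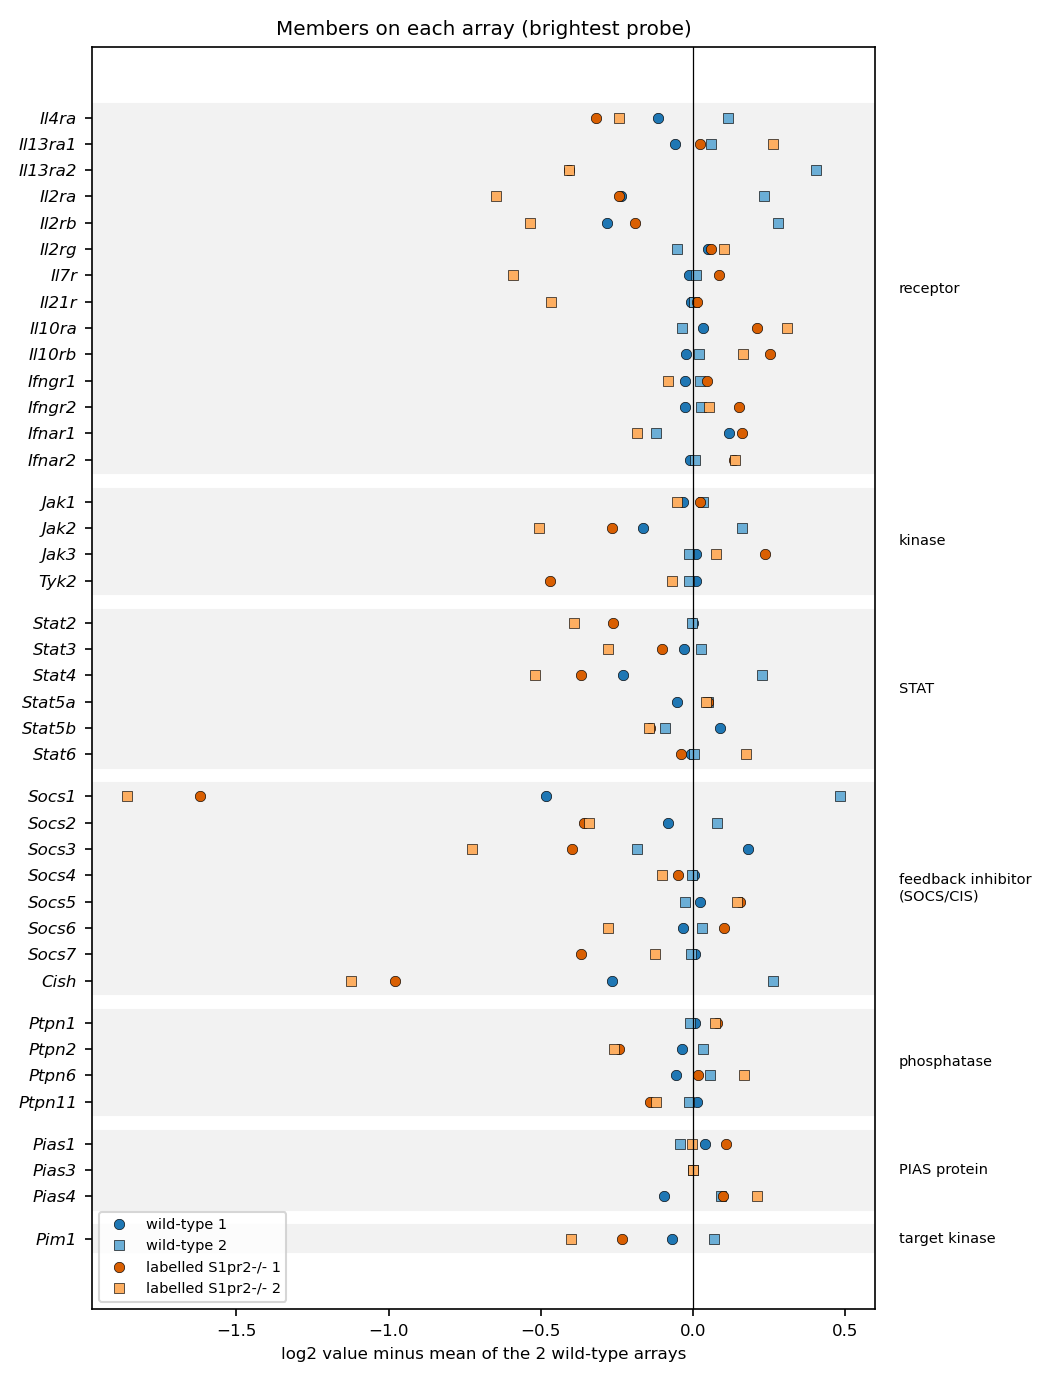
The log2 value of each member on each array is shown relative to the mean of the wild-type arrays, with circles for the first and squares for the second array of a genotype (blue, wild-type; orange, labelled S1pr2-/-) and members grouped by role. The orange points of Socs1 and Cish stand apart on the left, those of most receptors and of Stat6 lie among or beside the blue ones, and Il13ra2 and Pias3 hold values at the floor, where 3 or 4 points coincide.

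Among the 14 receptor genes the median log2 fold change was -0.013, with 8 below and 6 above 0, and 0 lower and 2 higher at an unadjusted p under 0.05 from limma (against 5.59% and 3.99% of all probes). The receptor for IL-4 was measured by Il4ra, the chain that binds IL-4 and is shared by both IL-4 and IL-13 signaling. Its log2 values were 1.54 and 1.77 for wild-type and 1.34 and 1.41 for the arrays labelled S1pr2-/-. The groups did not overlap, but the gap between them was smaller than the gap between the wild-type arrays. The log2 fold change was -0.28 (SE 0.109, 95% interval -0.61 to 0.05, adjusted p = 0.542 from limma), and a dimmer probe of the gene gave -0.23. Il13ra1, the chain that pairs with IL4RA to bind IL-13, was at -1.64 and -1.53 in wild-type BALF cells and at -1.56 and -1.32 on the other arrays. Its log2 fold change was 0.14 (SE 0.118, 95% interval -0.21 to 0.50, adjusted p = 0.697 from limma), with overlapping groups. A value 1.5-fold lower lies outside the interval of Il13ra1 and just inside that of Il4ra. Il13ra2, which encodes a chain that binds IL-13 without signaling through JAKs, was at the floor of the scale on 3 arrays and at -5.83 on wild-type replicate 2, so no fold is given. Il2rg, the common gamma chain that pairs with IL4RA and with many other chains, was at 1.11 and 1.01 and then at 1.12 and 1.17, a log2 fold change of 0.083 (SE 0.068).

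Il10ra and Il10rb, the ligand-binding and the shared chain of the receptor for IL-10, a cytokine that restrains macrophages, were both higher on the arrays labelled S1pr2-/-. Il10ra was at 2.08 and 2.01 on the wild-type arrays and at 2.26 and 2.36 on the others, 1.20-fold higher (log2 fold change 0.26, SE 0.071, adjusted p = 0.515 from limma). Il10rb was at 1.57 and 1.61 against 1.84 and 1.76, 1.16-fold higher (log2 fold change 0.21, SE 0.065, adjusted p = 0.519 from limma). Neither pair of groups overlapped, and the differences were small beside those of Socs1 and Cish. The unadjusted p was 0.031 for Il10ra and 0.043 for Il10rb, and for both it was over 0.05 once any array was left out. The Il10 probe itself was at or close to the floor on all 4 arrays.

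Of the interferon receptor chains, Ifngr1 and Ifnar1 overlapped between the groups, and Ifngr2 and Ifnar2 were slightly higher on both arrays labelled S1pr2-/-. Ifngr1, the ligand-binding chain for interferon-gamma, was at 3.58 and 3.63 and then at 3.65 and 3.52, and its partner Ifngr2 at 2.24 and 2.30 and then at 2.42 and 2.32. The log2 fold changes were -0.016 and 0.10. Ifnar1, a chain for type I interferons, had a log2 fold change of -0.010 (SE 0.173). Its partner Ifnar2 was at 3.02 and 3.03 against 3.16 and 3.16, a difference of 0.14 (SE 0.054, adjusted p = 0.543 from limma) between arrays that were close within each genotype.

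Among the receptor chains away from the floor, those best known from lymphocytes varied most between the arrays of 1 genotype. Il7r, the chain for IL-7 that keeps T cells alive, was at 1.49 and 1.51 in wild-type BALF cells and at 1.58 and 0.90 on the arrays labelled S1pr2-/-. Il21r, the receptor for IL-21, was at -0.33 and -0.32 and then at -0.31 and -0.79. For both genes S1pr2-/- replicate 1 lay with the wild-type arrays and S1pr2-/- replicate 2 stood alone below them, so that the log2 fold changes of -0.25 for Il7r and -0.23 for Il21r turned to 0.085 and 0.016 without S1pr2-/- replicate 2. Il2ra, the chain induced on activated T cells, was at -0.61 and -0.14 against -0.62 and -1.02 (log2 fold change -0.44, SE 0.249). Il2rb, shared by the receptors for IL-2 and IL-15, was at -0.66 and -0.09 against -0.56 and -0.91 (log2 fold change -0.36, SE 0.264). For these chains the wild-type arrays also lay apart, with replicate 2 the higher. Stat4, which acts downstream of IL-12 in T cells and natural killer cells, was at -0.44 and 0.02 against -0.58 and -0.73 (log2 fold change -0.44, SE 0.196, adjusted p = 0.564 from limma). All 12 T cell markers were tested, of which 4 were lower and 0 higher at an unadjusted limma p under 0.05 (against 5.59% and 3.99% of all probes). The median log2 fold change of these markers was -0.48. Their summed level over the 75th percentile was 29.8 and 32.9 for wild-type and 27.4 and 19.4 for the arrays labelled S1pr2-/-, lowest on the same S1pr2-/- replicate 2, and Cd3d, a chain of the T cell receptor complex, was at 1.70 and 1.74 against 1.63 and 1.02. The largest of these differences were those of Trat1 (-1.28), Cd28 (-0.87), Lck (-0.77) and Cd5 (-0.77). Natural killer cell markers had 0 of 9 past that p in either direction, with summed levels of 7.63 and 14.4 against 9.54 and 7.24. B cell markers likewise had 0 of 7 (summed level 2.93 and 1.60 against 1.77 and 1.44). The part of T or natural killer cells in the values of Il7r, Il21r, Il2ra, Il2rb and Stat4 was not tested.

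**Figure D3:**
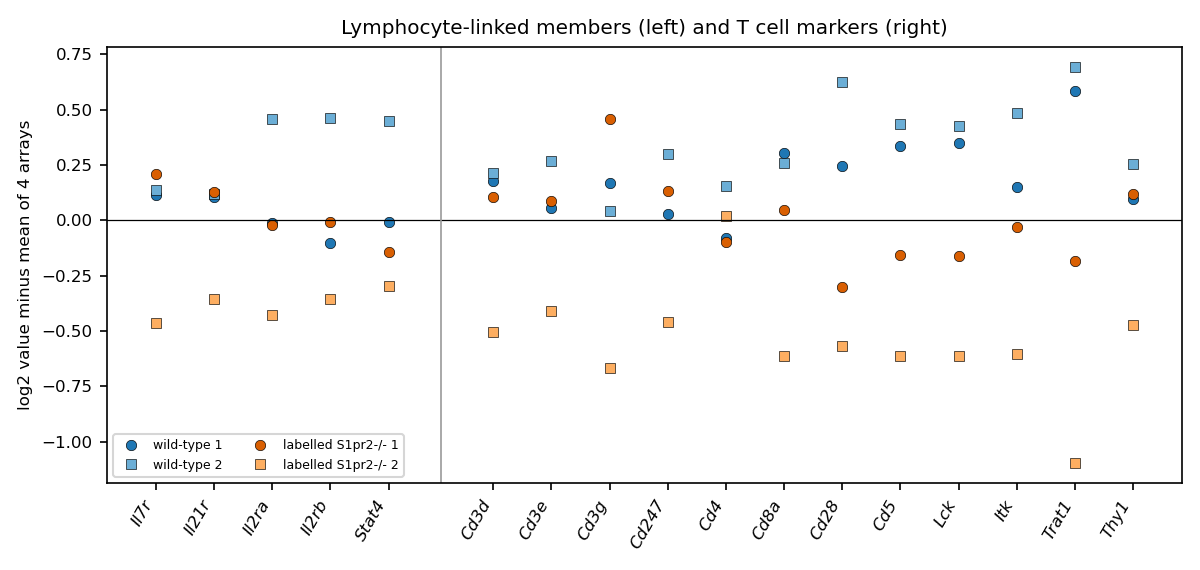
The log2 value on each array minus the mean of the 4 arrays is shown for 5 members known from lymphocytes (left) and for the 12 T cell markers (right), with circles and squares for the first and second array of each genotype (blue, wild-type; orange, labelled S1pr2-/-). The orange square, S1pr2-/- replicate 2, is the lowest point for all 5 members and for 11 of the 12 markers, Cd4 being the exception.

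The JAK kinases, which are bound to the receptor tails, had 0 of 4 genes past an unadjusted p of 0.05 from limma and a median log2 fold change of -0.14. Jak1, used by the receptors for IL-4, IL-13, IL-10 and the interferons, was at 4.43 and 4.5 and then at 4.49 and 4.41, a log2 fold change of -0.012 with a 95% interval of -0.21 to 0.19. Jak2, the kinase of the interferon-gamma and granulocyte-macrophage colony-stimulating factor receptors, was at 2.29 and 2.62 against 2.19 and 1.95. The Jak2 groups did not overlap, with a log2 fold change of -0.39 (SE 0.166, adjusted p = 0.558 from limma). Jak3, which binds the common gamma chain, was at -1.01 and -1.04 against -0.79 and -0.95, a log2 fold change of 0.16. Tyk2, the partner of JAK1 at the type I interferon and IL-10 receptors, was at 0.26 and 0.23 on the wild-type arrays and at -0.23 and 0.18 on the others. Its log2 fold change of -0.27 came mainly from S1pr2-/- replicate 1 and was -0.067 without it.

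The STAT transcription factors had a median log2 fold change of -0.17, with 4 of 6 lower on both arrays labelled S1pr2-/- (21.8% of all probes were) and 0 higher on both (20.0% of all probes were). Stat6, the factor that IL-4 and IL-13 activate, was at 1.68 and 1.69 in wild-type BALF cells and at 1.64 and 1.86 on the arrays labelled S1pr2-/-. The groups overlapped, and the log2 fold change was 0.067 (SE 0.099, 95% interval -0.23 to 0.37, adjusted p = 0.822 from limma), with 0.18 and 0.017 from the dimmer probes. A difference of 1.5-fold in either direction lies outside the interval of the brightest probe. Stat2, the part of the interferon-activated factor ISGF3 that carries the activation domain, was at 3.16 and 3.15 against 2.89 and 2.76. Here the wild-type arrays were nearly equal and both other arrays lay below them, 1.25-fold lower on average (log2 fold change -0.33, SE 0.074, 95% interval -0.55 to -0.10, adjusted p = 0.509 from limma). Stat3, the factor of IL-6 and IL-10 signaling, was at 3.97 and 4.03 against 3.90 and 3.72, a log2 fold change of -0.19 (SE 0.090). The close relatives Stat5a and Stat5b, which act for granulocyte-macrophage colony-stimulating factor and IL-2, had log2 fold changes of 0.047 and -0.14, and a dimmer probe of Stat5b gave 0.0021.

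**Figure D4:**
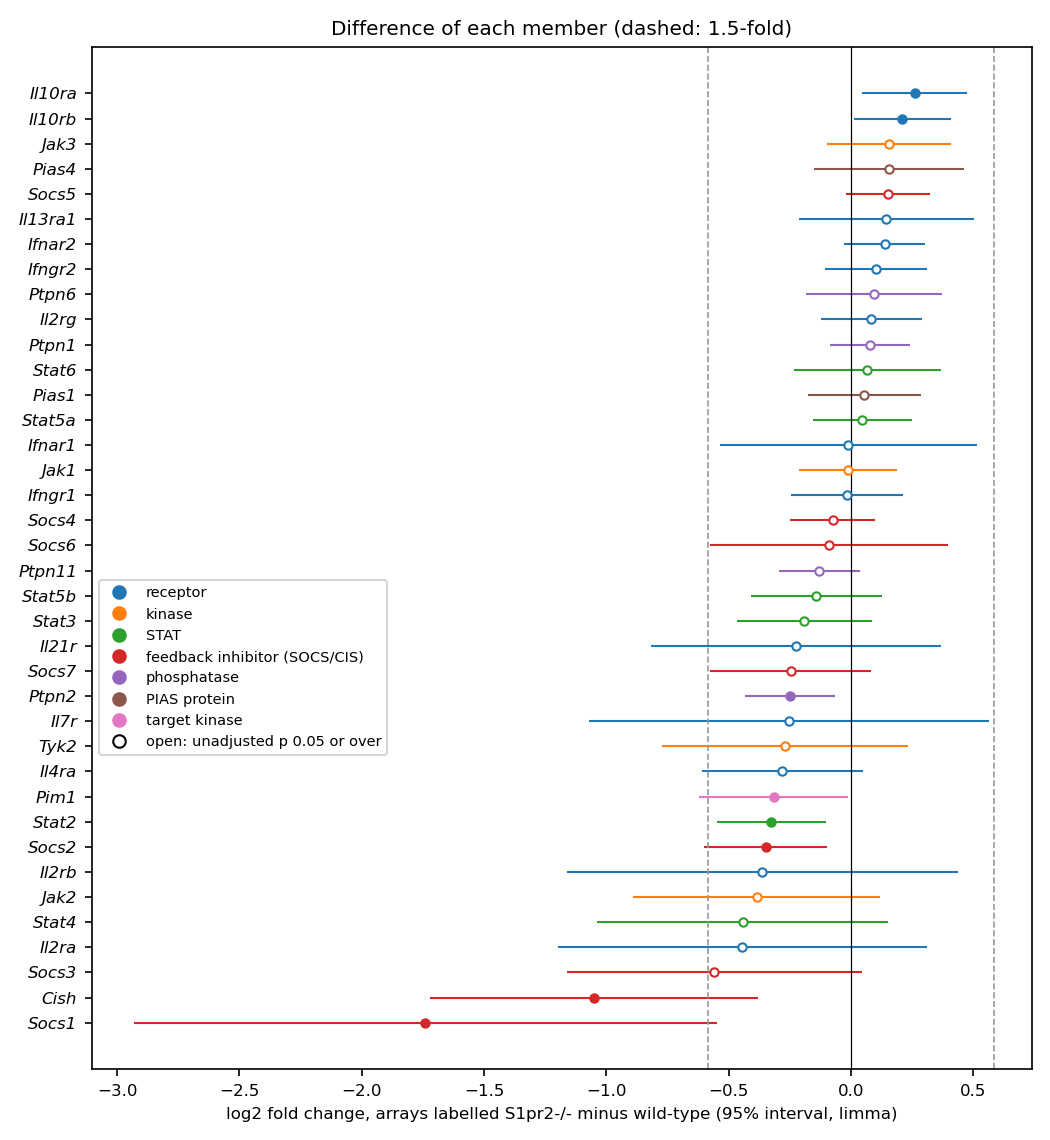
The log2 fold change (arrays labelled S1pr2-/- minus wild-type) of the 38 members without a value at the floor is shown with its 95% interval from limma, coloured by role, filled where the unadjusted p was under 0.05, with dashed lines at 1.5-fold. Only Socs1 and Cish have filled points beyond the dashed line, and most receptor, kinase and phosphatase genes lie near 0.

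The feedback inhibitors held the members with the largest differences. Of the 8 SOCS and CIS genes, 6 were lower on both arrays labelled S1pr2-/- and 1 higher on both, beside 21.8% and 20.0% of all probes. At an unadjusted limma p under 0.05, 3 were lower and 0 higher, beside 5.59% and 3.99% of all probes, and the median log2 fold change was -0.30. Socs1 encodes the inhibitor that blocks the kinase pocket of JAKs and is induced by interferon-gamma and IL-4. It was at 0.62 and 1.59 in wild-type BALF cells and at -0.51 and -0.75 on the arrays labelled S1pr2-/-. The groups were far apart, and the wild-type arrays themselves differed by 0.97 on the log2 scale. The fold change was 3.34-fold lower (log2 fold change -1.74, SE 0.392, 95% interval -2.93 to -0.55, adjusted p = 0.509 from limma), and it lay between -2.22 and -1.26 when any array was left out. Its unadjusted p of 0.018 was 0.084 without S1pr2-/- replicate 1 and 0.107 without S1pr2-/- replicate 2.

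Cish encodes CIS, which occupies the STAT5 docking sites of receptors and is a classic STAT5 target. Its log2 values were 2.25 and 2.78 against 1.54 and 1.39, so the same wild-type replicate 2 was the higher and both other arrays lay below. It was 2.07-fold lower (log2 fold change -1.05, SE 0.221, 95% interval -1.72 to -0.38, adjusted p = 0.509 from limma), between -1.32 and -0.79 with an array left out. Its unadjusted p of 0.014 was 0.072 without S1pr2-/- replicate 1 and 0.093 without S1pr2-/- replicate 2. Socs2, another STAT5 target and a regulator of growth hormone signaling, was at 0.68 and 0.84 against 0.41 and 0.42. That is a log2 fold change of -0.35 (SE 0.082, 95% interval -0.60 to -0.10, adjusted p = 0.509 from limma), and its dimmer probes gave -0.26 and -0.23. Socs3, the STAT3-induced inhibitor of IL-6 family receptors, was at 3.67 and 3.30 against 3.09 and 2.76. For Socs3 the first array of each genotype was the higher, and the log2 fold change was -0.56 (SE 0.199, 95% interval -1.16 to 0.04, adjusted p = 0.534 from limma).

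The remaining SOCS genes, which are less tied to cytokine induction, differed less. Socs7 was at 1.34 and 1.33 against 0.97 and 1.21, a log2 fold change of -0.25, and Socs5 at -1.57 and -1.62 against -1.44 and -1.45, a log2 fold change of 0.15. Socs4 had a log2 fold change of -0.075. Socs6 had -0.089 with overlapping groups, and a dimmer probe of it gave 0.011. Thus within this family the genes with the largest differences were Socs1, Cish, Socs3 and Socs2, in that order of size, and the intervals of neighbouring members overlapped.

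The promoter windows of Socs1, Cish and Socs3 are shown because these members had the largest log2 fold changes of the 40 genes. STAT dimers bind to the palindrome TTCNNNGAA, and STAT6 favours a spacing that is longer by a base (TTC and GAA with 4 bases of any kind between them). Both read the same on either strand and neither contains the other. The windows run from 250 bases before to 50 bases after a transcript's start, 300 bases in all, on the transcript's strand, with sequences and positions from RefSeq on GRCm38.p6, and matches to either motif stand in capitals. Cish lies at chr9:107296409-107296708 on the plus strand, Socs1 at chr16:10785487-10785786 on the minus strand and Socs3 at chr11:117969317-117969616 on the minus strand.
Cish: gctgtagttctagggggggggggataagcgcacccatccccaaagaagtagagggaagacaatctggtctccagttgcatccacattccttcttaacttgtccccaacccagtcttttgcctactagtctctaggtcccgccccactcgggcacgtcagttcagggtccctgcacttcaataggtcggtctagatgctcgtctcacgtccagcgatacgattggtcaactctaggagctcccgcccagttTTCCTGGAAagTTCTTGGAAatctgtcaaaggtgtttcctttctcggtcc
Socs1: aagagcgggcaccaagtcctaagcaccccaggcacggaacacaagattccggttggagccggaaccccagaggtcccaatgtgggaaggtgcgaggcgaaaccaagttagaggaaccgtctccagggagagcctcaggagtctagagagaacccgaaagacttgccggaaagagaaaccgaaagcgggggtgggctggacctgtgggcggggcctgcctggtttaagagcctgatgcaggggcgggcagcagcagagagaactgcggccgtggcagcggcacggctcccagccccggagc
Socs3: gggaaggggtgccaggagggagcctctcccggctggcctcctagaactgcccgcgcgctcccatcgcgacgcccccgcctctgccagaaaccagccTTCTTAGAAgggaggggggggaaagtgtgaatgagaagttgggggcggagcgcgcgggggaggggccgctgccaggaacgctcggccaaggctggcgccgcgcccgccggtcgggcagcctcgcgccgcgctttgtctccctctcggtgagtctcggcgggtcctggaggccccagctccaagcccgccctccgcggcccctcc
The Cish window held 2 matches to TTCNNNGAA, TTCCTGGAA at window bases 251 to 259 and TTCTTGGAA at bases 262 to 270, both at the start of the transcript. Socs3 held 1 match, TTCTTAGAA at bases 97 to 105, and the Socs1 window held 0 matches to either motif. Of the 31 members with a window in the table, 5 (16.1%) held TTCNNNGAA, which were Il7r, Ifnar1, Ifnar2, Socs3 and Cish, beside 9.55% of all 27025 genes with a window. The longer spacing was in 2 (6.45%), Ifngr2 and Stat2, beside 8.01% of all genes. So members with the short palindrome included both Cish, at -1.05, and Ifnar2, at 0.14. These matches describe letters in a window and not binding, and a window without a match says nothing of sites elsewhere.

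Among the phosphatases that strip the phosphate from JAKs and STATs, limma gave 1 of 4 as lower before adjustment (p under 0.05, as for 5.59% of all probes) and 0 as higher (3.99%). Ptpn2, the T cell phosphatase that acts on JAK1, JAK3 and nuclear STATs, was at 1.81 and 1.88 on the wild-type arrays and at 1.60 and 1.58 on the others. The difference was small but larger than the spread within either genotype (log2 fold change -0.25, SE 0.061, 95% interval -0.43 to -0.07, adjusted p = 0.509 from limma). Both dimmer probes of Ptpn2 were lower as well, at -0.17 and -0.47. Ptpn11, which encodes SHP2 and often promotes signaling downstream of receptors, was at 3.44 and 3.41 against 3.29 and 3.31, a log2 fold change of -0.13. Ptpn6, which encodes the leukocyte inhibitor SHP1, was at 3.72 and 3.83 against 3.79 and 3.94 (log2 fold change 0.093) with overlapping groups. Ptpn1 had a log2 fold change of 0.077, and its dimmer probe gave -0.091. The PIAS genes, whose proteins attach SUMO to STATs and other factors, gave 0.054 for Pias1 and 0.16 for Pias4, and Pias3 was at the floor on all 4 arrays, so no fold is given. Pim1, a survival kinase that STAT3 and STAT5 induce, was at 0.27 and 0.40 against 0.10 and -0.06. It was 1.24-fold lower (log2 fold change -0.32, SE 0.101, 95% interval -0.62 to -0.01, adjusted p = 0.519 from limma), without overlap of the groups.

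For 11 members a total of 16 dimmer probes were tested beside the brightest. The sign differed for 4 of these probes, all with small differences, and 0 differed from the brightest probe by over 1.5-fold. The other 29 members had 1 probe.

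The cytokines themselves were measured on the same arrays, most of them close to the floor. Of 22 ligand genes on the array 15 were tested. Of these, 4 were lower and 0 higher at an unadjusted p under 0.05 from limma (against 5.59% and 3.99% of all probes). No gene of this or any other list named here passed an adjusted p of 0.05 (0 in each). Il4, the ligand of IL4RA, was at -1.42 and -0.14 in wild-type BALF cells and at -4.43 and -4.26 on the arrays labelled S1pr2-/-. This was 11.9-fold lower (log2 fold change -3.57, SE 0.505, adjusted p = 0.509 from limma), with wild-type replicate 2 again the higher. Il13 was at -4.57 and -2.78 against the floor on both other arrays, at least 7.85-fold lower (adjusted p = 0.509 from limma). Il6 (-1.73) and Il7 (-0.47) were the others below that p, and Ifng, whose product is a known inducer of Socs1, was at -2.33 and -0.90 against -3.02 and -2.87 with a log2 fold change of -1.33 (SE 0.566, adjusted p = 0.555 from limma).

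Genes known to respond to IL-4 and IL-13 through STAT6 were read beside the chain of Il4ra, the JAKs and Stat6. Of 18 tested, 8 were lower and 0 higher at an unadjusted p under 0.05 from limma (against 5.59% of all probes lower), and their median log2 fold change was -0.61. On both arrays labelled S1pr2-/- 13 were lower (21.8% of all probes were) and 2 higher (20.0% of all probes were). Several of the 18 were picked by the study on these arrays, so these counts are no independent evidence of direction. Ccl24, the eosinophil attractant eotaxin-2, was at 1.15 and 2.78 against -5.83 and the floor, at least 294-fold lower. Alox15, Retnla and Arg1 had log2 fold changes of -4.83, -3.11 and -1.67. Chil3 (-0.031), Mrc1 (-0.017) and Mgl2 (-0.18) of the same list overlapped between groups. Between ligand and response, the log2 fold changes of Il4ra, Il13ra1, Il2rg, the 4 JAKs and Stat6 ran from -0.39 for Jak2 to 0.16 for Jak3. Those of Il4, Socs1, Cish and the response genes named as lower lay below that range. These are the genes with the largest differences of their lists, so their place below it follows from that choice. Chil3, Mrc1 and Mgl2 lay within that range.

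**Figure D5:**
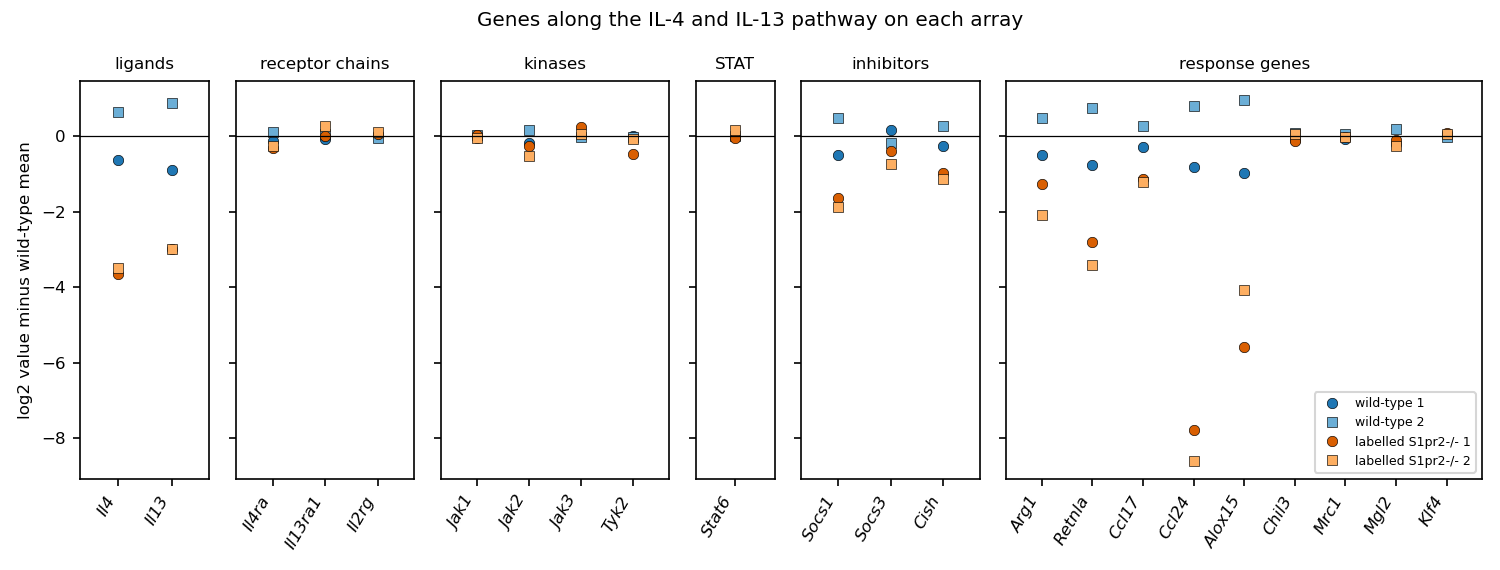
Genes along the IL-4 and IL-13 pathway are ordered from ligand to response, with the log2 value on each array minus the wild-type mean (circles, first array; squares, second array; blue, wild-type; orange, labelled S1pr2-/-). Receptor chains, kinases and Stat6 lie close to 0, as do the response genes Chil3, Mrc1 and Mgl2. Il4, Il13 and other response genes such as Ccl24 and Alox15 reach several log2 units below. Il13 on both S1pr2-/- arrays and Ccl24 on the second are at the floor.

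Eosinophil markers were lower on the same arrays. All 7 that were tested of 8 (Prg2, Epx, Ccr3, Il5ra, Gata1, Cebpe and Alox15) were lower by limma at a p under 0.05 before adjustment. Over all probes 5.59% were lower and 3.99% higher at that p. The median log2 fold change of the 7 was -4.52, and Prg3 was at the floor on 3 arrays. Gata1 was 48.0-fold lower (log2 fold change -5.58) and Prg2 40.1-fold lower (-5.32), and Epx was at least 23.0-fold lower. Their summed level over the 75th percentile was 6.54 and 21.1 for wild-type and 0.433 and 0.618 for the arrays labelled S1pr2-/-. Wild-type replicate 2, the higher of the wild-type arrays for these markers, was also the higher for Il4, Il13, Socs1 and Cish. Alox15 stands on this list as well as among the IL-4 response genes, and Il5ra is a cytokine receptor. Of 8 neutrophil markers tested, 3 were lower at that p and 0 higher, with summed levels of 85.8 and 96.4 against 69.5 and 63.1. They were Retnlg, at 2.65 and 4.33 against -1.79 and -0.85 (log2 fold change -4.81), Cxcr2 (-0.59) and Csf3r (-0.28). S100a9 (-1.46) and Mmp8 (-0.32) were also lower on both arrays labelled S1pr2-/-, whereas S100a8 (0.25), Ltf (0.36) and Camp (-0.11) overlapped between the groups. Of the 8 neutrophil markers, 5 were lower on both arrays labelled S1pr2-/- (21.8% of all probes were). On both arrays 0 were higher (20.0% of all probes were), and the median log2 fold change of the 8 was -0.30. Of 7 mast cell and basophil genes, Mcpt8, Cpa3, Fcer1a, Ms4a2 and Gata2 were at the floor on all 4 arrays. Epithelial markers had 1 of 8 lower at that p (Krt18, -0.45) and 0 higher. Of the 8, 6 were lower on both arrays labelled S1pr2-/- (21.8% of all probes were), with a median log2 fold change of -0.36. Their summed level overlapped between the groups (30.8 and 33.8 against 24.7 and 40.4). In that sum Scgb1a1, at 3.76 and 4.12 against 3.51 and 4.82, weighed most on every array. Markers of monocyte-derived macrophages had 0 of 9 lower and 1 higher at that p (Cd14, 0.17). Of the 9, 5 were higher on both arrays labelled S1pr2-/- (20.0% of all probes were) and 0 lower on both, with a median log2 fold change of 0.54. Their summed levels were 128 and 57.0 against 146 and 92.8. In these sums Apoe, at 6.16 and 3.74 against 6.04 and 5.14, weighed most on every array. The part of eosinophils, neutrophils or other cells in the values of Socs1, Cish and the other members was not tested.

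Of the other receptors of the same classes, 28 of 29 were tested, and 4 were lower and 1 higher at an unadjusted limma p under 0.05. Over all probes 5.59% were lower and 3.99% higher at that p, here and for the lists that follow. The median log2 fold change of these receptors was -0.065. Il5ra, the eosinophil receptor for IL-5, was 13.3-fold lower (log2 fold change -3.73). Il31ra (-0.89), Osmr (-0.38) and Csf3r (-0.28), the neutrophil receptor for granulocyte colony-stimulating factor, were the other lower ones, and Epor (0.59), the erythropoietin receptor, was the higher one. Csf2ra and Csf2rb, the chains for granulocyte-macrophage colony-stimulating factor on which alveolar macrophages depend, had log2 fold changes of -0.035 and -0.015. Of 23 other regulators of the pathway, 4 were lower and 0 higher at that p, with a median of 0.020. They were Usp18 (-0.80), which blocks the type I interferon receptor, Nmi (-0.41), an interferon-induced partner of STATs, Irf9 (-0.21), the DNA-binding partner of STAT2, and the phosphatase Ptpre (-0.22). Stat2 was at -0.33 beside these, and the receptor chains Ifnar1 and Ifnar2 were at -0.010 and 0.14. Genes that STAT5 and STAT3 induce elsewhere, 17 in all, had 0 lower and 1 higher (Lrg1, 0.27) at that p. Their median was -0.086, beside -1.05 for Cish, -0.35 for Socs2 and -0.32 for Pim1. Of the 17, 5 were lower on both arrays labelled S1pr2-/- (21.8% of all probes were) and 2 higher on both (20.0% were). The largest of these differences were those of Timp1 (-0.92) and Il1rn (-0.50).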

How the data were processed

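BALF cell RNA from both genotypes, all given bleomycin, was measured on 4 one-color arrays, 2 per genotype, grouped by their labels. All arrays shared a slide, so no slide batch could be tested. The authors deposited scanner output, whose processed intensity was already background-corrected by Feature Extraction (version 10.7.3.1 per the labels, 11.0.1.1 per the file headers), and a table of their normalized log2 values, which was used as an alternative. Compared with the scanner output, it holds the scaled log2 signal without a floor, centred per probe on the wild-type midpoint (100% of 39359 probes within 0.01 after removing a constant per array). Its column medians were 0.023, -0.023, -0.058 and -0.034.

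Here each processed intensity was scaled by the 75th percentile of the 43020 non-control spots of its array, values under 0.01 were set to 0.01 (log2 -6.64) and log2 was taken. Outlier-flagged spots (115 to 273 per array) were left out, and spots of a probe averaged. No spot was saturated (0 per array). Of 39429 probes, 69.6% were named through accessions in a RefSeq table of GRCm38.p6. The 27158 probes with a value on each array that stood well above background throughout at least 1 genotype were tested with limma 3.58.1 in R 4.3.3 (lmFit, eBayes, two-sided, Benjamini-Hochberg over all of them), without a replicate block. An "at least" fold takes the floor as the bound. The code was tested on simulated data. All 40 members are named, and from each other list up to 4 tested genes with the largest difference at an unadjusted p under 0.05. Csf2ra, Csf2rb, Ifng, Cd3d, S100a8, Ltf, Camp, Chil3, Mrc1 and Mgl2, and the remaining eosinophil markers and genes at the floor, were named after their values were seen. So were S100a9, Mmp8, Timp1, Il1rn, Scgb1a1 and Apoe. Members and lists were chosen with earlier results of these data known. Alternatives were other normalizations, background, floor, filters, flags, variance models, the methods' t-test, a replicate block, arrays left out and the next brightest probe. A planned comparison of SOCS protein sequences was not run here.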

Additional observations from a re-analysis of the deposited data

How the results depend on the processing

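Members at an adjusted p under 0.05 numbered 0 in each direction under every alternative, and over all probes limma called 0 except under normexp (1 lower, 1 higher). The 2 members lower past 1.5-fold at an unadjusted p under 0.05 became 0 with the methods' t-test and 0 to 4 with an array left out. The 0 higher became 1 with the authors' log2 values and 1 without a floor, which in both was Pias3, an otherwise floored probe. The 6 lower at an unadjusted p became 2 to 7 with an array left out. The 2 higher became 1 under cyclic loess, 5 when the percentile was taken over detected probes, 1 under normexp, 5 without a filter, 1 with probes detected on all arrays, 5 with the methods' t-test and 0 with any array left out. Replicate numbers are shared between genotypes only as numbers (correlation of same-numbered deviations 0.187). With a replicate block 5 members were lower and 0 higher, and over all probes 1456 and 975.

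No sign turned under any alternative for 29 of 40 members. These include the floored Pias3, which had no sign to keep. They also include Il13ra2, whose difference became 0 with the percentile over detected probes and without wild-type replicate 2. Signs turned under normexp for Ifngr1 (0.048) and Ifnar1 (0.0096), under cyclic loess for Jak1 (0.0027) and with the next brightest probe for Stat5b (0.0021), Socs6 (0.011) and Ptpn1 (-0.091). With an array left out, the ranges that crossed 0 were -0.59 to 0.085 for Il7r, -0.47 to 0.016 for Il21r, -0.080 to 0.048 for Ifngr1, -0.18 to 0.16 for Ifnar1, -0.050 to 0.026 for Jak1, -0.0035 to 0.098 for Stat5a, -0.040 to 0.17 for Stat6, -0.28 to 0.10 for Socs6 and -0.0023 to 0.11 for Pias1. The cause of these turns was not tested. Over all probes, 1518 lower and 1083 higher at an unadjusted p became 1049 and 1709 after quantile normalization, 1416 and 1676 when the percentile was taken over detected probes, 1758 and 761 under normexp and 1044 and 1336 without S1pr2-/- replicate 1, while no scaling moved the median of all probes by more than 0.035. Normexp used median signals, since mean signals were not among the columns used here. In fits with an array left out, the lone array was assumed to vary like the others. With 2 arrays a genotype, the 95% interval of a member reached 0.276 on the log2 scale to either side in the median.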
